A study of Mus musculus with 15 samples.

Results

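The genes described here are the mouse receptors for the constant region of immunoglobulin G (IgG), together with the adaptor that several of them share. They are Fcgr1, Fcgr3 and Fcgr4 (activating receptors), Fcgr2b (the inhibitory receptor), Fcer1g (the Fc receptor gamma chain) and Fcgrt (the neonatal Fc receptor, FcRn). The 6 genes were taken by symbol from the 38924 genes listed in each library. All 6 passed the filter on low counts, as did 14967 genes in all.

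Fc gamma receptors let myeloid cells bind IgG that coats a particle or is held in an immune complex. The activating receptors carry no signal of their own and pair with the Fcer1g chain, whose tyrosine motif is phosphorylated by Src-family kinases and recruits the kinase Syk. Fcgr2b carries an inhibitory motif in its own tail, which recruits the phosphatase SHIP-1, so the balance of activating and inhibitory receptors sets the threshold for phagocytosis and cytokine release. Fcgrt is related to MHC class I, pairs with beta-2-microglobulin and returns IgG from endosomes to the cell surface. Microglia, the resident macrophages of the brain, are known to express Fc gamma receptors, and mouse Fcgr4 is best known from monocytes, macrophages and neutrophils.

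RNA-seq was made from brain myeloid cells of male wild type C57BL/6J mice aged 12 months that ate either a chow diet (CD) or, from young adulthood, a western diet (WD). Cells were sorted into CD11b+CD45lo and CD11b+CD45hi fractions from brains without olfactory bulb and cerebellum. There were 4 libraries of CD45hi and 4 of CD45lo cells from CD-fed mice, and 3 of CD45hi and 4 of CD45lo cells from WD-fed mice. Before the sort the cells were incubated with an antibody to CD16/CD32, which binds the proteins made from Fcgr3 and Fcgr2b. The study describes its deposited counts as given per animal, and the labels do not say which CD45hi and CD45lo libraries came from the same mouse.

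The libraries held 11951412 to 17912272 expected counts each, and the limit of measurement was set at 3 counts, or 0.156 to 0.282 cpm (counts scaled to library size) depending on the library. Ptprc, which encodes CD45, was higher in CD45hi cells on both diets (log2 fold change 1.15 on CD and 1.56 on WD). The summed level of 9 microglial markers was 7367 to 9256 cpm in the 7 CD45hi libraries and 15814 to 19672 cpm in the 8 CD45lo libraries, so the CD45hi libraries also held microglial marker RNA. Summed markers of classical and patrolling monocytes, neutrophils, border-associated macrophages, dendritic cells and NK cells were higher in every CD45hi library than in any CD45lo library. Single markers did not all do so, and Ly6g, Zbtb46 and Prf1 overlapped between the fractions on both diets. Cd209a was the largest dendritic cell marker in CD45hi cells (mean 155 cpm on CD and 139 cpm on WD). F13a1 counts in both the classical monocyte and the border-associated macrophage sum. Those of T cells, mast cells and basophils, and other brain cells were at most 5.01, 7.32 and 16.1 cpm in a library. The mast cell and basophil sum had a median of 0 cpm in CD45hi libraries on both diets, against 2.33 cpm on CD and 0.672 cpm on WD in CD45lo libraries. The sum of 6 patrolling monocyte markers was 263 to 782 cpm in CD45hi and 9.94 to 21.9 cpm in CD45lo libraries, and that of 7 neutrophil markers was 698 to 2744 cpm against 41.9 to 233 cpm. The sum of 6 border-associated macrophage markers was 765 to 2715 cpm in CD45hi and 65.6 to 242 cpm in CD45lo libraries. All 6 patrolling monocyte markers exceeded 3 counts in at least 1 library of each CD45hi group, whereas Cd300e stayed at or under 3 counts in the WD CD45lo group. In sorted bulk samples, fewer cells of a type and less RNA per cell cannot be told apart. In a principal component analysis CD CD45hi replicate 4 and WD CD45hi replicate 1 stood apart from the other CD45hi libraries. The 1 call among the 6 genes, Fcgr4 on CD, is therefore given with and without them.

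In the mouse genome (build mm10, GENCODE M21), 4 of the 6 genes lie in one stretch of chromosome 1. Fcgr2b spans chr1:170958617-170976547 on the minus strand, Fcgr4 chr1:171018920-171029761 on the plus strand, Fcgr3 chr1:171051174-171064935 on the minus strand and Fcer1g chr1:171229572-171234365 on the minus strand, within 275749 bases in all. Fcgr1 lies at chr3:96282909-96293969 and Fcgrt at chr7:45092990-45103851, both on the minus strand. An antisense gene overlaps Fcgr2b (Gm38204) and another overlaps Fcgrt (Gm45669). Use of the strand in counting is not given in the sources used here, and reads of these pairs cannot be told apart.

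The 100 bases before a RefSeq transcription start of each of the chromosome 1 genes are shown. They were read from RefSeq on GRCm38.p6, 5′ to 3′ on the strand of each gene, at chr1:171018826-171018925 for Fcgr4, chr1:171059404-171059503 for Fcgr3, chr1:170976072-170976171 for Fcgr2b and chr1:171234350-171234449 for Fcer1g. These starts differ from the ends of the GENCODE spans above. The Fcgr3 and Fcgr2b windows lie inside the span of their gene, and the Fcgr4 and Fcer1g windows partly overlap theirs. The windows are shown because the fitted fold changes of these neighbours between the cell fractions were unequal, a difference that was not tested. Capitals mark GAGGAA or its reverse complement TTCCTC, the core of the box bound by the myeloid factor PU.1, and ACTTCC or its reverse complement GGAAGT, a core of the wider Ets family. Both strands were searched, and the motifs can overlap.
Fcgr4: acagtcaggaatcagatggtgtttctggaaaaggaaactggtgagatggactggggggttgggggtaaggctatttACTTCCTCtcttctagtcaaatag
Fcgr3: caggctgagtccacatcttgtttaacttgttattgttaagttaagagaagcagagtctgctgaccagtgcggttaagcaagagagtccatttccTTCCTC
Fcgr2b: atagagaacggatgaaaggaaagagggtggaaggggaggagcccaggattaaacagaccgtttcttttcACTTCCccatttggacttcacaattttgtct
Fcer1g: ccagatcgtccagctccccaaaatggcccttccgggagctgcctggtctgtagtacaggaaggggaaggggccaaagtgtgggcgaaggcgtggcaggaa
Counted back from the start, with the base before it as -1, the Fcgr4 window held ACTTCC from -24, overlapping TTCCTC from -22. The Fcgr3 window held TTCCTC from -6 and the Fcgr2b window ACTTCC from -31. The Fcgr1 window, not shown, held ACTTCC from -61 and TTCCTC from -55, and the Fcer1g and Fcgrt windows held neither. Among 32851 promoter windows of the same length, 9.82% held the first motif on either strand, 10.03% the second and 17.89% at least one of them. A match describes the letters only.

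Levels were first ordered within each group in TPM, a unit that divides by transcript length and so allows genes to be compared. Fcer1g was the most abundant of the 6 genes in each of the 4 groups, and the activating receptors were led by Fcgr3. In CD CD45lo libraries the mean TPM was 1476 ± 78.1 for Fcer1g, 794 ± 40.9 for Fcgr3, 231 ± 21.8 for Fcgr2b, 164 ± 2.18 for Fcgr1, 36.4 ± 6.16 for Fcgrt and 9.13 ± 2.32 for Fcgr4 (SD, n = 4). In both CD45lo groups the order was the same and no neighbouring pair overlapped between libraries. Fcer1g ranked 37 to 45 among all genes by mean TPM, depending on the group.

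In CD CD45hi libraries the middle and the end of this order were less distinct, and in WD CD45hi libraries only the end was. In CD CD45hi libraries the mean TPM was 1518 ± 306 for Fcer1g and 464 ± 84.8 for Fcgr3, and these did not overlap with each other or with the genes below them. Fcgr2b at 161 ± 39.1, Fcgr1 at 104 ± 31.9, Fcgrt at 35.1 ± 28.2 and Fcgr4 at 30.4 ± 18.4 TPM (SD, n = 4) each overlapped with the next gene in the order. Within each CD CD45hi library Fcgr1 was still above Fcgrt. In WD CD45hi libraries Fcgr4 at 46.2 ± 20.2 TPM stood above Fcgrt at 21.0 ± 12.8 TPM (SD, n = 3), but their libraries overlapped. No other neighbouring pair overlapped there. Fcgr4, at the bottom of the order in CD45lo cells, was thus at or near the level of Fcgrt in CD45hi cells.

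**Figure D1:**
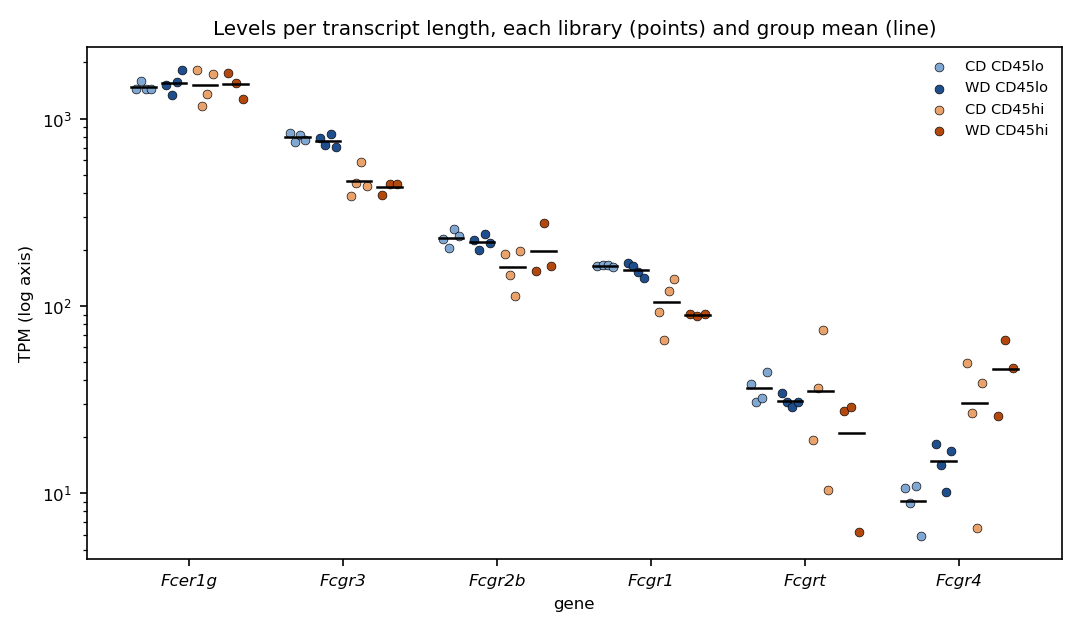
Levels per transcript length (TPM, log axis) of the 6 genes in 15 libraries, coloured by group, with a line at each group mean. Fcer1g lies at or above 1166 TPM in every library, and Fcgr4 moves from 5.93 to 18.3 TPM in CD45lo libraries to 6.49 to 66.2 TPM in CD45hi libraries.

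The main comparison asked whether CD45hi and CD45lo cells differ on each diet. It used cpm normalized by the trimmed mean of M-values (TMM) in edgeR, tested by glmTreat against a 1.5-fold change, with a Benjamini-Hochberg false discovery rate (FDR) under 0.05 over all 14967 genes as the threshold. On CD, 1 of the 6 genes, Fcgr4, passed this test, where 3.98% of all genes were called. On WD none of the 6 passed, where 5.18% of all genes were called, and Fcgr4 fell just short. Tested for any change instead (edgeR glmQLFTest), Fcgr4 was called on both diets and the other 5 genes on neither, where 8.03% of all genes were called on CD and 9.12% on WD.

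Fcgr4 (ENSMUSG00000059089) encodes an activating receptor for the IgG2 subclasses of the mouse. In CD CD45hi replicates 1 to 4 it stood at 39.2, 19.8, 5.10 and 33.6 cpm, and in CD CD45lo replicates at 6.12, 5.34, 6.33 and 3.29 cpm. In the 3 WD CD45hi replicates it stood at 21.5, 57.2 and 38.0 cpm, and in the WD CD45lo replicates at 10.1, 7.79, 5.87 and 10.4 cpm. Every CD45hi library except CD replicate 3 lay above every CD45lo library, so the fractions overlapped on CD through that library and did not overlap on WD.

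Fcgr4 rose 4.63-fold in CD45hi over CD45lo cells on CD (2.21 on the log2 scale with SE 0.544, and an edgeR glmTreat FDR of 0.0474). On WD the difference was 4.56-fold (2.19 with SE 0.567, and an edgeR glmTreat FDR of 0.0525). For any change the edgeR glmQLFTest FDR was 0.0164 on CD and 0.0199 on WD. The group means were 24.4 ± 15.2 and 5.27 ± 1.39 cpm on CD (SD, n = 4 and 4), and 38.9 ± 17.8 and 8.54 ± 2.12 cpm on WD (SD, n = 3 and 4).

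The call for Fcgr4 on CD lay close to the threshold: it passed in 8 of 27 alternative settings (FDR 0.00451 to 0.503), and on WD it passed in 10 of 27 (FDR 0.0135 to 0.325), with CD45hi higher in each of them. On CD the call was lost on leaving out any 1 of the 8 CD libraries other than CD45hi replicate 3 (edgeR glmTreat FDR up to 0.149). It was also lost on leaving out 5 of the 7 WD libraries, which share the fit (edgeR glmTreat FDR up to 0.0642). Without both libraries that stood apart the log2 fold change was 2.02 (FDR = 0.0798) on CD and 2.48 (FDR = 0.0269) on WD.

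Among CD45hi libraries, Fcgr4 varied 7.68-fold on CD and 2.65-fold on WD. CD CD45hi replicate 3, the library lowest in Fcgr4, also had the lowest summed patrolling monocyte markers (263 cpm, against 301 to 535 in the other CD CD45hi libraries). It had the lowest neutrophil markers (1067 against 2240 to 2744 cpm) and the highest microglial markers (9256 against 7367 to 8548 cpm). Its classical monocyte, border-associated macrophage and dendritic cell markers (533, 1964 and 138 cpm) were also the lowest of the CD CD45hi libraries. Its NK cell markers (11.3 cpm) were not, as replicate 4 had 4.70 cpm. WD CD45hi replicate 2, the library highest in Fcgr4, had the highest patrolling monocyte markers (782 cpm) and border-associated macrophage markers (2715 cpm) and the lowest neutrophil markers (698 cpm) of the CD45hi libraries, and the highest classical monocyte markers of those on WD (813 cpm). Other CD45hi libraries did not keep this order. WD CD45hi replicate 1 had 629 cpm of patrolling monocyte markers but the lowest Fcgr4 of the WD CD45hi libraries (21.5 cpm). CD CD45hi replicate 4 had more of these markers than replicate 1 (535 against 416 cpm) but less Fcgr4 (33.6 against 39.2 cpm). The part of these cells in the Fcgr4 result was not tested.

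**Figure D2:**
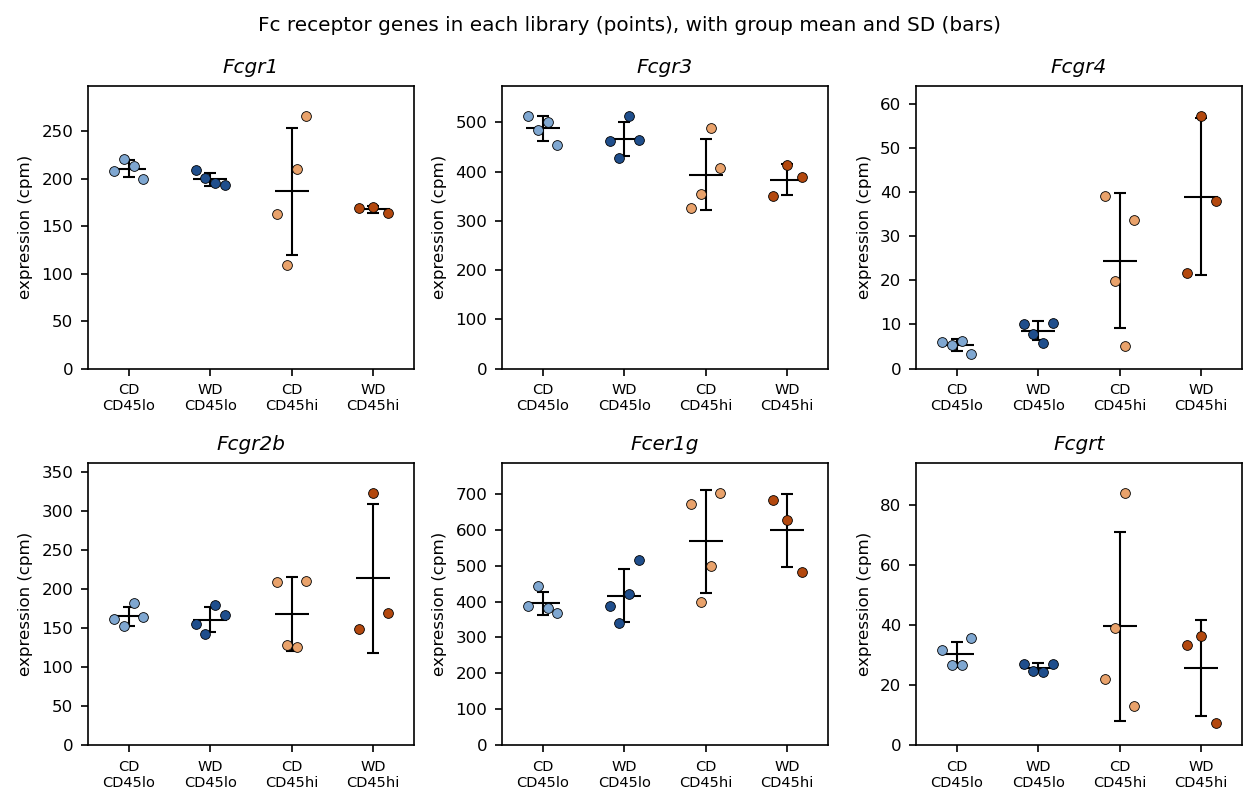
Expression (cpm, linear axes from 0) of each gene in every library, with points for libraries and bars for the mean and SD of the 4 groups (n = 4, 4, 4 and 3). Fcgr4 is higher in CD45hi libraries except CD replicate 3 at 5.10 cpm. Within a group, libraries vary up to 1.92-fold in CD45lo and 7.68-fold in CD45hi cells (Fcgr4 on CD for both). On WD, Fcer1g varies 1.51-fold in CD45lo and 1.41-fold in CD45hi cells.

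Fcgr3 (ENSMUSG00000059498) encodes the low-affinity activating receptor CD16, the most abundant activating receptor here. It stood at 325, 354, 489 and 408 cpm in CD CD45hi replicates 1 to 4 and at 512, 484, 501 and 454 cpm in CD CD45lo replicates. In WD CD45hi replicates it stood at 349, 413 and 388 cpm, and in WD CD45lo replicates at 463, 427, 512 and 464 cpm. CD45hi libraries were the lower ones, with overlap on CD and none on WD. The log2 fold change was -0.31 (SE 0.134) on CD and -0.28 (SE 0.146) on WD, which did not pass (edgeR glmTreat FDR = 1.00 and 0.994, glmQLFTest FDR = 0.203 and 0.246).

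Fcgr1 (ENSMUSG00000015947) encodes the high-affinity receptor CD64. On CD it stood at 163, 109, 210.3 and 266 cpm in CD45hi replicates 1 to 4 and at 208, 221, 213 and 199.6 cpm in CD45lo replicates. On WD it stood at 169, 170.4 and 163 cpm in CD45hi replicates and at 209, 201, 195 and 193 cpm in CD45lo replicates. The CD CD45hi libraries spread on both sides of the CD45lo ones, and the WD CD45hi libraries all lay below the WD CD45lo ones. The log2 fold change was -0.17 (SE 0.201) on CD and -0.25 (SE 0.218) on WD, and neither passed (edgeR glmTreat FDR = 1.00 and 0.969).

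On WD, 3 of the 6 genes (Fcgr1 and Fcgr3 lower, Fcgr4 higher in CD45hi cells) thus had libraries that did not overlap between the fractions, where 23.4% of all genes did not overlap. On CD none of the 6 did, where 16.5% of all genes did not overlap.

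Fcgr2b and Fcgr3 are similar in sequence over their outer parts, and the deposited counts show that reads were divided between them. Their expected counts were fractional in 15 of 15 libraries, while the sum of both was a whole number in 15 of 15 (within 0.005 counts), so the division was between these genes. The other 4 genes had whole counts in all 15 libraries. Summed, Fcgr2b and Fcgr3 differed between CD45hi and CD45lo cells by a log2 fold change of -0.22 on CD and -0.07 on WD (edgeR glmTreat FDR = 1.00 for both).

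Fcgr2b (ENSMUSG00000026656) encodes CD32, the inhibitory receptor. It stood at 208, 128, 125 and 210.2 cpm in CD CD45hi replicates 1 to 4, and at 161, 153, 182 and 164 cpm in CD CD45lo replicates. In WD CD45hi replicates it stood at 148, 323 and 169.7 cpm, and in WD CD45lo replicates at 155, 142, 179 and 166 cpm. The CD45hi libraries of CD-fed mice split into a pair above and a pair below the CD45lo libraries, and WD CD45hi replicate 2 was the highest of the 15. The log2 fold change was 0.03 (SE 0.235) on CD and 0.41 (SE 0.252) on WD (edgeR glmTreat FDR = 1.00 and 0.848), and without the 2 libraries that stood apart it was -0.10 on CD. The library highest in Fcgr2b, WD CD45hi replicate 2, was also the highest in border-associated macrophage markers (2715 cpm). WD CD45hi replicate 1, the CD45hi library lowest in these markers (765 cpm), was at 148 cpm of Fcgr2b, above CD CD45hi replicates 2 and 3. Among CD CD45hi libraries the markers summed to 1964 to 2106 cpm, while Fcgr2b ran from 125 to 210.2 cpm. The summed level of 5 markers of B cells, most of which a CD11b+ gate would leave out, was 7.73 to 27.8 cpm in CD45hi and 3.41 to 13.1 cpm in CD45lo libraries. The part of either cell type was not tested.

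Fcer1g (ENSMUSG00000058715) encodes the signalling chain. It stood at 671, 398, 498 and 703 cpm in CD CD45hi replicates 1 to 4 and at 386, 443, 382 and 368 cpm in CD CD45lo replicates. In WD CD45hi replicates it stood at 683, 628 and 483 cpm, and in WD CD45lo replicates at 388, 341, 421 and 516 cpm. On both diets all but 1 of the CD45hi libraries lay above every CD45lo library. The difference was 1.44-fold on each diet (log2 fold change 0.52 with SE 0.181 on CD and 0.52 with SE 0.194 on WD). It did not pass either test (edgeR glmTreat FDR = 0.875 and 0.746, glmQLFTest FDR = 0.0932 and 0.106).

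Fcgrt (ENSMUSG00000003420) stood at 22.1, 38.8, 84.0 and 13 cpm in CD CD45hi replicates 1 to 4 and at 31.7, 26.7, 26.8 and 35.5 cpm in CD CD45lo replicates. In WD CD45hi replicates it stood at 33.3, 36.2 and 7.28 cpm, and in WD CD45lo replicates at 27.1, 24.6, 24.2 and 27.1 cpm. CD45hi libraries lay on both sides of the CD45lo libraries on each diet, and CD CD45hi replicate 3, the lowest in Fcgr4, was the highest in Fcgrt. The log2 fold change was 0.39 (SE 0.510) on CD and -0.01 (SE 0.551) on WD (edgeR glmTreat FDR = 0.975 and 1.00).

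The scale mattered for these comparisons. In TPM the median log2 difference between CD45hi and CD45lo cells of the 8253 genes with a mean of at least 10 cpm was -0.47 on CD and -0.54 on WD, where the TMM fit of all tested genes centred at 0.04 and 0. Relative to that median, the log2 TPM difference was 1.83 for Fcgr4 on CD and 2.04 on WD, 0.49 and 0.50 for Fcer1g, and -0.32 and -0.29 for Fcgr3. Taken without the shift, Fcer1g differed in TPM by 0.02 on CD and -0.03 on WD.

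**Figure D3:**
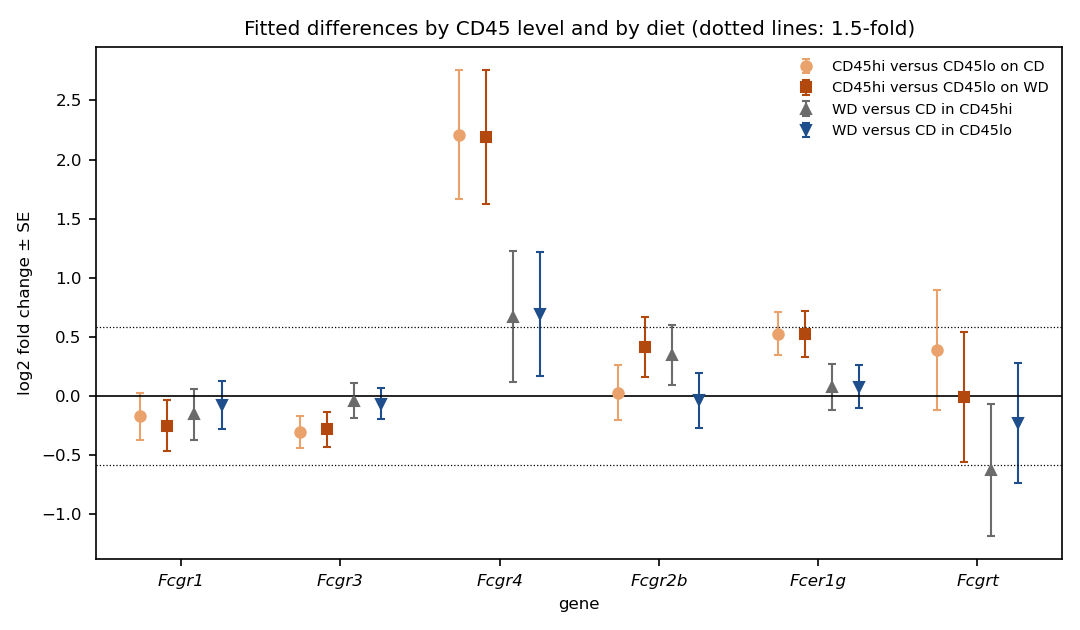
Log2 fold changes (points, with SE) of the 6 genes between CD45hi and CD45lo cells on each diet and between diets in each fraction, with dotted lines at a 1.5-fold change. Fcgr4 stands at 2.21 and 2.19 between the fractions, and the next largest value between fractions is 0.52 (Fcer1g, on each diet).

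Ratios between the genes within a library do not depend on the scaling between libraries, and were taken in TPM. Fcgr4 made up 9.39, 4.92, 0.913 and 6.33% of the summed activating receptors (Fcgr1, Fcgr3 and Fcgr4) in CD CD45hi replicates 1 to 4, and 0.636 to 1.11% in CD CD45lo libraries. It made up 5.06, 10.9 and 7.99% in WD CD45hi replicates and 1.03 to 1.97% in WD CD45lo libraries. Fcgr3 supplied most of the rest, at 71.1 to 83.0% in CD45hi and 80.3 to 83.6% in CD45lo libraries. Of the CD45hi libraries, CD replicate 3 was the one with a share of Fcgr4 inside the CD45lo range.

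The ratio of activating receptors to inhibitory Fcgr2b was 2.79, 3.73, 6.31 and 3.13 in CD CD45hi replicates 1 to 4 and 3.87 to 4.55 in CD CD45lo libraries. It was 3.32, 2.18 and 3.59 in WD CD45hi replicates and 3.98 to 4.54 in WD CD45lo libraries. All CD45hi libraries except CD replicate 3 thus had less activating receptor per Fcgr2b than any CD45lo library, with the limit that Fcgr3 and Fcgr2b share reads. The ratio of Fcer1g to activating receptors was 1.91 to 3.44 in CD CD45hi against 1.42 to 1.72 in CD CD45lo libraries, and 2.18 to 3.43 in WD CD45hi against 1.49 to 2.10 in WD CD45lo libraries. For Fcer1g the fractions did not overlap on either diet. The TPM values behind these ratios enter the comparisons above, so the ratios are a description with no test.

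**Figure D4:**
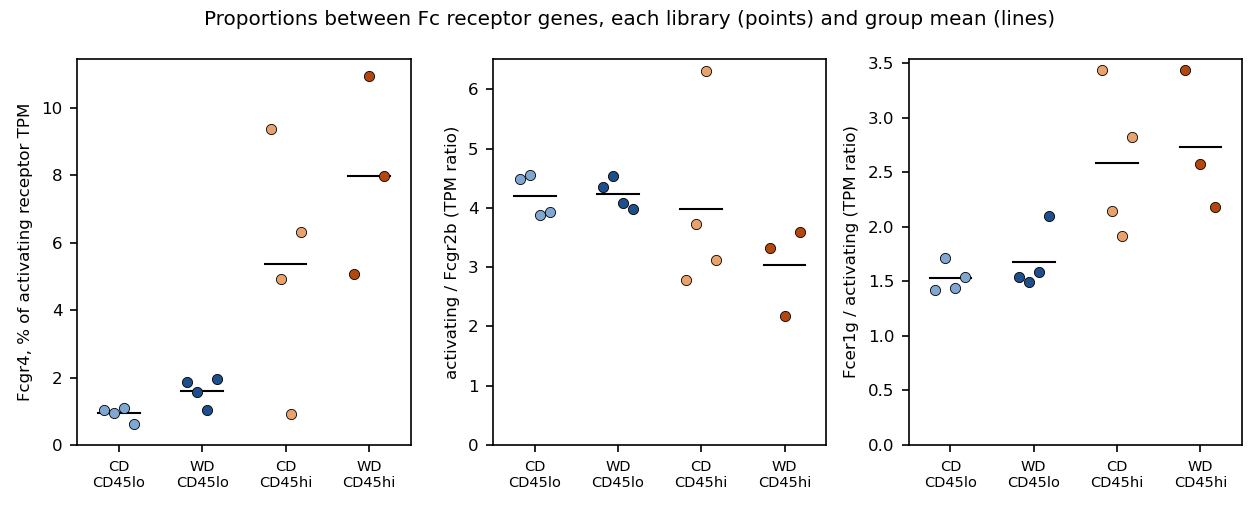
Share of Fcgr4 among activating receptors (percent), ratio of activating receptors to Fcgr2b and ratio of Fcer1g to activating receptors, all from TPM, in each of the 15 libraries with a line at the group mean. CD CD45hi replicate 3 is the lowest CD45hi library in the first panel (0.913%) and the highest library in the second (6.31).

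The second comparison asked whether the diet changes these genes within a fraction. In CD45hi cells none of the 6 genes was called between WD and CD by edgeR glmQLFTest, where 0.254% of all genes were called, and none had an unadjusted p under 0.05, where 17.6% of all genes did. Libraries of the 2 diets overlapped for each of the 6 genes, where 5.77% of all genes did not overlap. The log2 fold change of WD over CD was 0.67 for Fcgr4 (SE 0.556, FDR = 0.566), 0.35 for Fcgr2b (SE 0.252, FDR = 0.508) and -0.63 for Fcgrt (SE 0.558, FDR = 0.601). For Fcgr1, Fcgr3 and Fcer1g it was -0.16, -0.04 and 0.08 (SE 0.145 to 0.218).

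In CD45lo cells none of the 6 genes was called either (edgeR glmQLFTest FDR = 1.00 for each, unadjusted p 0.204 to 0.871). No gene of the 14967 was called there, 0.822% had an unadjusted p under 0.05, and DESeq2 called 4 genes. For each of the 6 genes the diets overlapped, where 2.42% of all genes did not. Fcgr4 was 8.54 cpm on WD and 5.27 cpm on CD (log2 fold change 0.69, SE 0.525), with 3 of the 4 WD libraries above every CD library. The other 5 genes had log2 fold changes between -0.23 (Fcgrt) and 0.08 (Fcer1g).

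The interaction of diet and CD45 level, which asks whether the fractions differ by another amount on WD than on CD, passed for none of the 6 genes (edgeR glmQLFTest FDR 0.767 to 1.00), where 0.00668% of all genes were called and 10.1% had an unadjusted p under 0.05. For Fcgr4 the interaction was -0.02 (log2, SE 0.744), so the passing FDR on CD and the one just short on WD do not mark a tested difference between diets. The estimate was 0.38 (SE 0.345) for Fcgr2b and -0.40 (SE 0.752) for Fcgrt.

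Other genes of the pathway were taken from 5 lists, which were chosen with earlier results of these data known. The study had already named Cd300ld among the genes most enriched in CD45hi cells. Counts and medians of these lists are thus a description with no test. The filter on low counts adds a limit. A gene near 0 in CD45lo cells could pass it only through CD45hi libraries, and could then hardly do other than rise. Ncr1 passed in this way (0 cpm in the CD45lo libraries), and Clec4d averaged 0.776 cpm on CD and 0.327 cpm on WD in CD45lo cells. Among receptors that pair with Fcer1g and the related adaptor, 4 of 6 tested genes (8 listed) rose in CD45hi cells on each diet and none fell, where 3.39% of all genes were called higher on CD and 4.01% on WD. These were Clec4d, Clec4e and Clec4n, C-type lectins that bind microbial and damaged-cell glycolipids or glycans, and Cd300ld, an activating receptor of the Cd300 family. Clec4e rose from 0.492 to 3.69 cpm in CD CD45lo libraries to 29.4 to 111 cpm in CD CD45hi libraries (log2 fold change 5.20, edgeR glmTreat FDR = 0.000326). On WD Clec4n was at 18.05 to 34.5 cpm in CD45hi libraries and at 0 to 0.519 cpm in CD45lo libraries (log2 fold change 7.0, edgeR glmTreat FDR = 0.000363). On CD the call of Clec4n was lost without CD45lo replicate 1, 2 or 4 (log2 fold change 3.63 to 3.84, edgeR glmTreat FDR = 0.0523 to 0.0626).

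Cd300ld stood at 77.1 to 119 cpm in CD CD45hi and 1.56 to 3.87 cpm in CD CD45lo libraries (log2 fold change 4.98, edgeR glmTreat FDR = 4.19e-05). Ncr1, an NK cell receptor, was at 0 in all 8 CD45lo libraries. It stood at 0.0655 to 4.13 cpm in CD CD45hi libraries and at 0 to 1.92 cpm in WD CD45hi libraries, with replicate 1 of each group under the floor of 3 counts. Against that floor, the mean of the CD45hi group was at least 9.20-fold higher on CD and at least 4.80-fold higher on WD. Ncr1 was not called (edgeR glmTreat FDR = 0.0873 and 0.111). The list median was 5.09 on CD and 6.43 on WD in log2, or 4.42 and 6.20 with Ncr1 at its bound, beside 0.04 and 0 over all tested genes. Tyrobp, which encodes the adaptor DAP12, differed by 0.52 on CD and 0.88 on WD (edgeR glmTreat FDR = 0.895 and 0.141, glmQLFTest FDR = 0.0492 and 0.00226).

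In activating signalling downstream of Fcer1g, 2 of 25 tested genes (26 listed) rose on each diet, where 3.39% of all genes were called higher on CD and 4.01% on WD. On WD 1 gene of the list fell, where 1.17% of all genes were called lower. Fgr, a Src-family kinase of myeloid cells, stood at 32.1 to 121 cpm in CD CD45hi and 3.18 to 7.38 cpm in CD CD45lo libraries, and rose by 3.56 on CD and 3.55 on WD (log2, edgeR glmTreat FDR = 0.000306 and 0.000407). Vav3, a guanine nucleotide exchange factor, rose by 4.06 and 4.03 (edgeR glmTreat FDR = 0.0118 and 0.0136). Plcg1, a phospholipase C, fell by 1.62 on the log2 scale on WD (edgeR glmTreat FDR = 0.0174). The call of Vav3 was lost without CD CD45lo replicate 1 (log2 fold change 3.87, FDR = 0.0521) and without WD CD45lo replicate 3 or 4 (3.94 and 3.82, FDR = 0.0515 and 0.0509), and that of Plcg1 without WD CD45hi replicate 1 or 2 (-1.41 each, FDR = 0.0612 and 0.0600).

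The core kinases did not pass in either direction. Syk, the kinase recruited by the phosphorylated gamma chain, had log2 fold changes of 0.21 on CD and 0.08 on WD (edgeR glmTreat FDR = 1.00 and 0.999), and Lyn, a Src-family kinase that acts on both activating and inhibitory motifs, -0.22 and -0.07 (FDR = 1.00 for both). The list median was 0.18 on CD and 0.08 on WD.

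Of the 9 genes of inhibitory signalling, all tested, none was called on either diet by edgeR glmTreat, where 3.98% of all genes were called on CD and 5.18% on WD. Inpp5d, which encodes SHIP-1, the phosphatase recruited by Fcgr2b, stood at 340 to 461 cpm in CD CD45hi and 541 to 611 cpm in CD CD45lo libraries. On WD it stood at 328 to 442 and 540.4 to 623 cpm. The fractions thus did not overlap on either diet, where 16.5% of all genes did not overlap on CD and 23.4% on WD. Its log2 fold change was -0.43 on CD and -0.61 on WD, below the 1.5-fold threshold on CD (edgeR glmQLFTest FDR = 0.0502 and 0.0101). Ptpn6, the phosphatase SHP-1, differed by 0.03 and 0.32 (edgeR glmTreat FDR = 1.00 and 0.908). For any change, edgeR glmQLFTest called Dok2, an adaptor that damps signalling, and Pag1, which anchors the kinase Csk, on CD, and Inpp5d and Pag1 on WD. By that test 8.03% of all genes were called on CD and 9.12% on WD. The list median was 0.24 on CD and 0.32 on WD.

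Among other Fc receptors and their relatives, 7 of 14 listed genes passed the filter. Fcrls, a secreted Fc receptor-like protein known as a microglial marker, fell by 1.47 on CD and 1.15 on WD (log2, edgeR glmTreat FDR = 0.000637 and 0.0219) and was the one gene of this list that was called, where 0.588% of all genes were called lower on CD and 1.17% on WD. It stood at 325 to 609 cpm in CD CD45hi and 1272 to 1466 cpm in CD CD45lo libraries. On WD its call was lost without CD45hi replicate 3 and without CD45lo replicate 1, 2 or 3 (log2 fold change -1.13 to -1.07, edgeR glmTreat FDR = 0.0516 to 0.0662). B2m, the partner chain of Fcgrt, was higher in every CD45hi library (log2 fold change 0.56 on CD and 0.76 on WD) and passed only the test for any change (edgeR glmQLFTest FDR = 0.00193 and 0.000233). Fcer1a and Ms4a2, the other chains of the mast cell IgE receptor, did not pass the filter and reached at most 22 and 4 counts in a library. The list median was 0.02 on CD and 0.76 on WD.

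Of the 9 listed ligands, 3 were tested and none was called by edgeR glmTreat, where 3.98% of all genes were called on CD and 5.18% on WD. For any change, edgeR glmQLFTest called Igkc, an immunoglobulin light chain gene, on CD (1.97 to 40.2 cpm in CD45hi and 0 to 1.35 cpm in CD45lo libraries, log2 fold change 5.61, FDR = 0.0457) and none on WD. By that test 8.03% of all genes were called on CD and 9.12% on WD. Ighm was at 271 to 470 cpm in CD CD45hi libraries and 315 to 357 cpm in CD CD45lo libraries. Ighg2c, an IgG heavy chain gene, reached 38.8 cpm in 1 CD CD45hi library and was at 0 in all WD libraries. Between diets, no gene of the 5 lists was called in either fraction, where 0.254% of all genes were called in CD45hi cells and no gene in CD45lo cells.

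**Figure D5:**
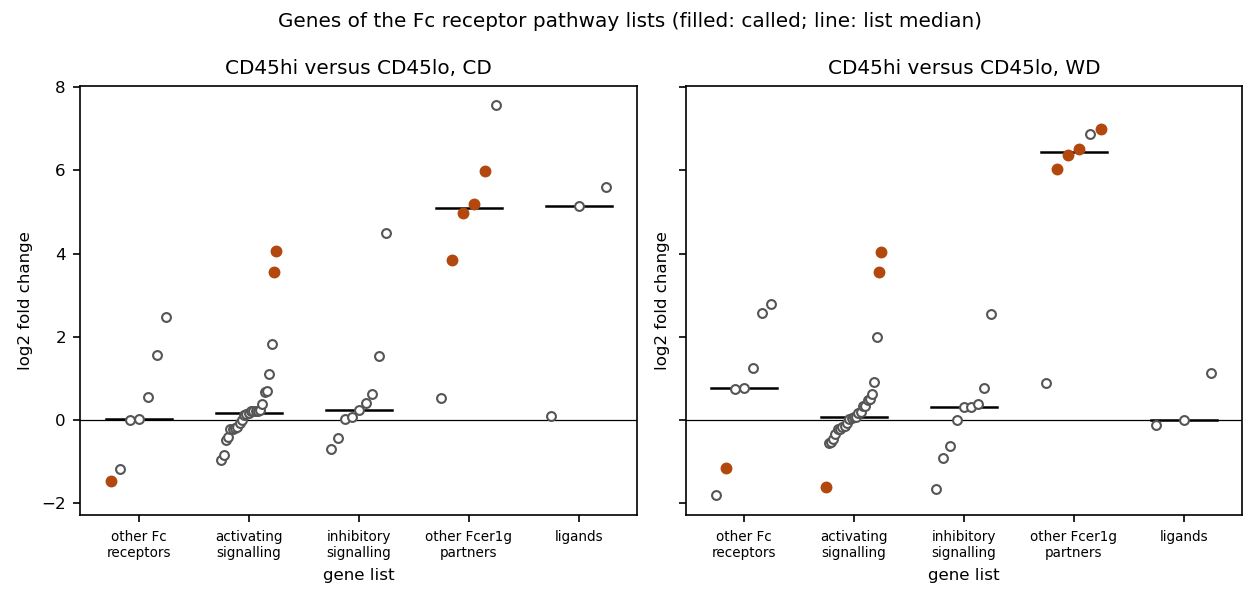
Log2 fold changes between CD45hi and CD45lo cells of the tested genes of 5 lists, on CD (left) and WD (right), with filled points for genes called by glmTreat and a line at each list median. The 4 filled points of the Fcer1g partner list lie between 3.85 and 7.0, and most genes of the signalling lists lie near 0.

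Along chromosome 1, Fcgr2b and Fcgr3, on either side of Fcgr4, had log2 fold changes of 0.03 and -0.31 on CD and 0.41 and -0.28 on WD. Sdhc, a gene of the respiratory chain between Fcgr3 and Fcer1g, had 0.07 and 0.14. Fold changes of larger size than that of Fcgr4 stood in the same stretch for genes of low level, which were Apoa2 (2.59 on CD, mean 0.257 cpm over the libraries), Nr1i3 (-4.58 on CD, mean 0.379 cpm) and Pcp4l1 (2.28 on WD, mean 3.27 cpm). No tested gene of this stretch other than Fcgr4, on CD, was called by edgeR glmTreat. These are values side by side, and the difference between neighbours was not tested.

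The pattern of each gene over the 15 libraries was compared with that of 8252 other genes with a mean of at least 10 cpm, as the root-mean-square distance between centred log2 cpm values. Nearest to Fcgr3 were Cd53 (0.128), Lair1 (0.131) and Plod3 (0.137), against a median distance of 0.619 from Fcgr3 to all these genes. Nearest to Fcgr1 were Plxnb2 (0.121), Ncstn (0.138) and Pip4k2a (0.151). Nearest to Fcer1g were Chchd2 (0.144), Gnai2 and Hipk2 (0.166 each), and nearest to Fcgr2b were B4galt6 (0.149), Top1 (0.166) and Ubap2l (0.183). For Fcgr4, which varied more over the libraries (SD 1.29 in log2, against 0.21 for Fcgr3), the nearest were Fam129b (0.526), Flot2 (0.538) and Cenpf (0.590), against a median distance of 1.40. For Fcgrt (SD 0.76) they were Med21 (0.381), Zfp97 (0.385) and Ercc3 (0.404), against a median of 0.947. All points share the same libraries, so the distances are a description.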

How the data were processed

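RNA-seq was made from 15 libraries, whose diet and CD45 level come from the labels. Per the labels and the study's methods, reads were demultiplexed (bcl2fastq 2.18.0.12), aligned to mm10 and counted with RSEM 1.2.12. The annotation release is not given in the sources used here, nor is the sequencing platform of each library, so its part as a batch was not tested. The authors deposited expected counts per gene, estimated and not normalized, and TPM, scaled by the authors for transcript length. Effective lengths were not used.

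The 6 genes and the pathway and marker lists were chosen with earlier results of these data known. Expected counts were rounded. Genes that reached 1 cpm in 2 or more libraries were tested with edgeR 4.0.16 (R 4.3.3) in 1 quasi-likelihood fit of 4 groups with TMM normalization. CD45 fractions were compared by glmTreat (1.5-fold), diets and the interaction by glmQLFTest, with Benjamini-Hochberg adjustment (FDR under 0.05). SE is the log2 fold change divided by the square root of F. Cpm values use TMM library sizes, and log2 cpm a prior count of 2. Named pathway genes were Syk, Lyn, Inpp5d, Ptpn6, Tyrobp and B2m, and, of each list and CD45 comparison, up to 3 genes with the highest and 3 with the lowest log2 fold change among called genes without overlap. Clec4n and Cd300ld are named on both diets to complete a count. Ncr1, Dok2, Pag1, Fcer1a, Ms4a2, Ighm, Igkc, Ighg2c, Sdhc, Apoa2, Nr1i3 and Pcp4l1 were named after their values were seen.

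Depth limits precision, and the floor of 3 counts covers counting error only. No 2 libraries of a group agreed within counting noise (chi-square per degree of freedom 16.9 to 114 over 21 pairs). The fit was also run on simulated counts with a common mean and spread for each gene and changes only in WD CD45hi cells. That run did not copy the wider differences among CD45hi libraries, and it is not used as support here. Alternatives were DESeq2 1.42.0, limma-voom (limma 3.58.1), log2(TPM + 1) with limma, DESeq2 size factors, the edgeR 4 method, other filters, the 2 groups alone, the other edgeR test, replicate blocks and each library left out. Leaving out the 2 libraries that stood apart and summing Fcgr2b and Fcgr3 were chosen after seeing the data. Fcmr and Chil3 were not matched in the files by symbol. Gene positions are from GENCODE M21 and promoters from RefSeq (GRCm38.p6).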

Additional observations from a re-analysis of the deposited data

Results flagged for a closer look

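In groups of 4 libraries, 7 of 114 sets of values had 1 library far from the other 3 by Dixon's test at the 95% level, which chance alone gives in about 1 in 20 sets. Fgr stood at 121 cpm in CD CD45hi replicate 4, against 32.1 to 42.8 cpm in the other CD CD45hi libraries. The 2 genes that encode the proteins of the sort gate (Itgam and Ptprc) summed to 3110 cpm there, against 2539 to 2607 cpm. Tyrobp stood at 495 cpm in WD CD45lo replicate 3, against 457 to 460.1 cpm. The ratio of Fcer1g to activating receptors was 2.10 in WD CD45lo replicate 4, against 1.49 to 1.59. Border-associated macrophage markers summed to 242 cpm in CD CD45lo replicate 4, against 114 to 128 cpm. T cell markers summed to 5.01 cpm in CD CD45hi replicate 3, against 0.579 to 1.32 cpm, and mast cell and basophil markers to 4.85 cpm in CD CD45hi replicate 1, against 0 in the others. The levels of the 6 Fc receptor genes gave no such library.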

How the results depend on the processing

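The direction of Fcgr4 (higher in CD45hi cells) and of Fcgr3 (lower) was the same under every alternative run on either diet. For Fcgr4 the side of the threshold was not. The number of Fc receptor genes called on CD was 1 and became 0 with limma-voom, log2(TPM + 1), no filter on low counts, the 2 groups alone, both replicate blocks and without the 2 libraries that stood apart. On WD it was 0 and became 1 (Fcgr4) with DESeq2, DESeq2 size factors, the edgeR 4 method, the stricter filter, glmQLFTest, the 2 groups alone and without those 2 libraries. Leaving out each library gave 0 to 1 on each diet. The cause was not tested.

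Beyond single libraries, calls between fractions were lost for Vav3 with limma-voom (3.81 on CD, 4.13 on WD) and the replicate block by file numbers (3.83 and 4.14), for Plcg1 on WD with the 2 groups alone (-1.62) and that block (-1.70), and for Fcrls on WD with DESeq2 (-1.10) and limma-voom (-1.15). Against 0 genes called on CD, DESeq2, the edgeR 4 method and limma-voom each called 1 ligand gene and 1 inhibitory gene, log2(TPM + 1) and the block by titles 1 ligand gene, and the fit without the 2 libraries 1 inhibitory gene, and on leaving out each library both lists gave 0 to 1. On WD log2(TPM + 1) called 2 inhibitory genes.

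The genes called over the whole table changed as follows. Between fractions, glmQLFTest called 1202 on CD and 1365 on WD, log2(TPM + 1) called 396 on CD, and the block by file numbers 353 on WD. Without 1 library the counts were 411 to 701 on CD and 513 to 917 on WD. Between diets in CD45hi cells (38), DESeq2 called 1030, the edgeR 4 method 252, the stricter filter 71, log2(TPM + 1) 95, glmTreat 1, the 2 groups alone 0, the block by titles 2 and the fit without the 2 libraries 283, with 1 to 287 on leaving out each library. In CD45lo cells DESeq2 called 4. For the interaction (1), DESeq2 called 188, the edgeR 4 method, limma-voom and both blocks 0, and the fit without the 2 libraries 3, with 0 to 6 on leaving out each library.

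Signs that turned were of log2 values that passed no test in either setting. With log2(TPM + 1), Fcgr2b was -0.55 on CD and -0.20 on WD, Fcgrt -0.38 on CD, Fcer1g -0.031 on WD, Ptpn6 -0.92 and -0.19, Syk -0.28 and -0.53, and the interaction -0.032 for Fcgr3 and 0.14 for Fcgr4. With limma-voom, Fcgrt was -0.046 and Ptpn6 -0.0084 on CD, and the interaction of Fcgr4 0.19. Fcgrt on WD was 0.037 with DESeq2 and with its size factors and 0.00030 with the stricter filter, and the interaction of Fcer1g was 0.014 with each of these 3 and 0.016 with no filter. Without the 2 libraries, Fcgr2b was -0.098 and Syk -0.019 on CD, Ptpn6 -0.076 on WD, the diet difference in CD45hi cells 0.057 for Fcgr1 and 0.040 for Fcgr3, and the interaction 0.14 for Fcgr1, 0.46 for Fcgr4 and 0.011 for Fcer1g. With both genes summed, Fcgr2b was replaced by -0.22 on CD and -0.071 on WD.

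Deviations of CD45hi and CD45lo libraries that share a replicate number, from the titles or the file names, had correlations of -0.02 to 0.07. Such values cannot show whether libraries came from the same mouse, so the pairing is not known and the main fit leaves it out. Blocked by file numbers, Fcgr4 had an edgeR glmTreat FDR of 0.299 on CD and 0.262 on WD. With the replicate block by titles, Ptpn6 was -0.033 on CD and the interaction 0.011 for Fcgr1, 0.26 for Fcgr4 and 0.099 for Fcer1g. With the replicate block by file numbers, Fcgr2b was -0.013 and Ptpn6 -0.044 on CD, Syk -0.049 on WD, and the interaction 0.017 for Fcgr1, 0.23 for Fcgr4 and 0.0034 for Fcer1g.

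On leaving out each library, values that turned ranged as follows. Between fractions on CD, Fcgr1 was -0.39 to 0.016, Fcgr2b -0.098 to 0.15, Fcgrt -0.29 to 0.68, Ptpn6 -0.24 to 0.20 and Syk -0.019 to 0.34. On WD, Fcgr2b was -0.015 to 0.62, Fcgrt -0.35 to 0.43, Lyn -0.16 to 0.035, Ptpn6 -0.076 to 0.49 and Syk -0.19 to 0.41. Between diets in CD45hi cells, Fcer1g was -0.062 to 0.21, Fcgr1 -0.35 to 0.062, Fcgr2b -0.082 to 0.55, Fcgr3 -0.12 to 0.082 and Fcgrt -0.96 to 0.055, and in CD45lo cells Fcer1g was -0.041 to 0.16 and Fcgr2b -0.094 to 0.016. The interaction was -0.14 to 0.13 for Fcer1g, -0.27 to 0.14 for Fcgr1, -0.043 to 0.59 for Fcgr2b, -0.057 to 0.15 for Fcgr3, -0.41 to 0.30 for Fcgr4 and -0.73 to 0.28 for Fcgrt.

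Fcgr4 rested on 58 to 852 counts per library and Fcgrt on 95 to 955, and whether depth adds to their errors was not tested.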
